A study of Mus musculus with 6 samples.

Results

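The 10 tubulin genes described here are the alpha-tubulin genes Tuba1a, Tuba1b, Tuba1c, Tuba4a and Tuba8 and the beta-tubulin genes Tubb2a, Tubb2b, Tubb4b, Tubb5 and Tubb6. They were chosen by name from the GENCODE M21 annotation, with earlier results of these data known. They were matched by versioned Ensembl identifier and are 10 of the 55450 genes counted in each library. Bulk RNA-Seq was performed on primary hepatocytes that had been isolated by collagenase perfusion from male C57BL/6 mice (C57BL/6J in the methods) on normal diet. The labels give 10 to 12 weeks as the age at PHx and the methods a slightly younger one. The 3 libraries at 0 hours came from undamaged liver, and the 3 libraries at 48 hours came from liver remaining after partial hepatectomy (PHx), an operation that takes out the greater part of the organ. The labels name no genetic alteration or agent in either group, the 0-hour libraries are of undamaged rather than sham-operated liver, and each library was a separate hepatocyte preparation. The comparison asks how tubulin mRNA differs between resting hepatocytes and hepatocytes at the height of regrowth.

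Microtubules are hollow polymers of alpha- and beta-tubulin heterodimers. Cells carry several genes for each class, called isotypes, whose proteins are nearly identical in the body of the molecule and differ mainly in the acidic tail at the carboxyl end, where many modifying enzymes act. In hepatocytes microtubules carry secretory vesicles and organelles, and at division they are rebuilt into the spindle that separates the chromosomes. Cells also adjust tubulin mRNA to the amount of unpolymerized tubulin, because the factor Ttc5 recognizes nascent tubulin chains and directs the decay of their mRNA.

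After PHx, 6 of the 10 tubulin mRNAs rose, none fell past the threshold, 3 did not pass the test and 1 was too scarce to test. The largest changes were in Tuba8 (11.9-fold), Tubb6 (11.3-fold) and Tuba1b (6.82-fold), which were minor isotypes at 0 hours. Tubb5 (4.89-fold), Tubb4b (3.21-fold) and Tuba1c (2.97-fold) rose from moderate levels. Tuba4a and Tubb2a, the alpha and beta isotypes with the highest mean level per exon kilobase in undamaged liver, did not pass the test, and neither did Tuba1a. Of the 17037 genes with enough counts to test, 3638 (21.4%) were higher and 3288 (19.3%) lower at 48 hours by edgeR's quasi-likelihood test at an adjusted p under 0.05. Higher genes made up 52.5% of these calls, 71.6% with library size alone as scaling, 47.4% with TMM from protein-coding genes and 44.5% with upper quartile scaling, and each of these gave 6 members higher and none lower. The 6 of 9 tested members that rose had all 3 libraries at 48 hours above all 3 at 0 hours, which was the case for 27.8% of all genes tested. The median log2 fold change of the 9 members was 1.68, against -0.003 over all genes tested. All 9 had at least 10 counts at both times, so no member entered the test through 1 group alone.

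The ends of the beta-tubulin coding sequences show where these isotypes part and how alike the closest copies are. Each stretch below is the last 60 coding bases before the stop codon, read on the gene's strand from the GENCODE M21 transcripts (mouse build GRCm38), with capitals at bases that differ from Tubb5 or were placed opposite a gap by global alignment. Tubb2a, which did not pass the test, and Tubb4b, which rose, are shown with the near-silent copy Tubb2b.
Tubb5: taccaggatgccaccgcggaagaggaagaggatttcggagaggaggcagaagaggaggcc
Tubb4b: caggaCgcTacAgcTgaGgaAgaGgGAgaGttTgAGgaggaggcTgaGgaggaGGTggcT
Tubb2a: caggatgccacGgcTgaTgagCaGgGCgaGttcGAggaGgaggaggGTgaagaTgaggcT
Tubb2b: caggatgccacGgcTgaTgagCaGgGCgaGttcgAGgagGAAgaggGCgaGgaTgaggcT
Tubb4b, Tubb2a and Tubb2b had 19, 15 and 18 capitals, a count that includes bases opposite a gap as well as differing bases. The gap was placed differently in Tubb2a and Tubb2b, so the capitals do not compare these 2 with each other. The stretches lie on the minus strand at chr17:35834985-35835044 (Tubb5), chr2:25222311-25222370 (Tubb4b), chr13:34074471-34074530 (Tubb2a) and chr13:34127474-34127533 (Tubb2b). Over the whole coding sequence Tuba1a and Tuba1b were 98.3% identical, Tuba1b and Tuba1c 97.9%, and Tubb2a and Tubb2b 96.5%. Identity between the other pairs within a class was between 79.1% and 85.2%, except for 97.1% between Tuba1a and Tuba1c.

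How far reads can be told apart differs between these genes, and it sets how firmly each value can be read. For Tubb5 and Tubb6, 100% of the 75-base stretches of their annotated transcripts were found in no other gene's transcripts. The share was 86.5% for Tuba8, 70.1% for Tubb4b, 69.8% for Tubb2b, 66.6% for Tuba4a and 56.8% for Tubb2a. It was 51.1% for Tuba1c, 29.96% for Tuba1b and 29.6% for Tuba1a, so reads from most of the length of these last 2 fit several genes. Tuba1a and Tuba1b also share exon bases with the annotated readthrough gene Gm49450, 26.2% and 22.7% of their exon length, and that gene had 0 counts in all 6 libraries. The values of Tuba1a, Tuba1b and Tuba1c are therefore uncertain in level. How the counting split or dropped reads that fit several genes was not tested.

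**Figure D1:**
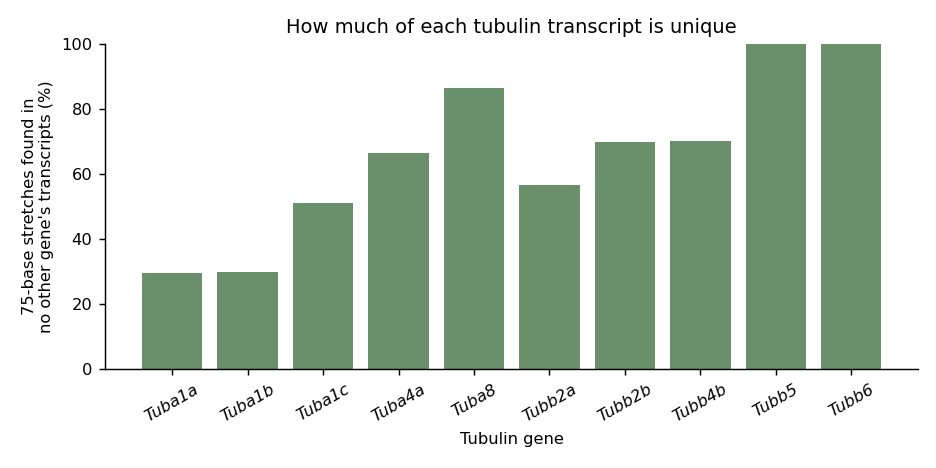
Share (%) of all 75-base stretches of each tubulin gene's annotated transcripts that occur in no other gene's transcripts, on either strand. The bars run from 29.6% for Tuba1a to 100% for Tubb5 and Tubb6.

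Values of single genes are given as CPM, the count of a gene per 1000000 gene counts of its library, scaled between libraries by trimmed mean of M values (TMM) factors, and the order of levels between genes is given only after division by exon length in kilobases. Among the alpha-tubulin genes, Tuba1c (chromosome 15, 99029891-99038110) had 50.9, 27.8 and 59.5 CPM in the 3 libraries from undamaged liver and 166, 142 and 104 CPM in the 3 libraries at 48 hours. The groups did not overlap, and the lowest library at 48 hours was 1.75 times the highest at 0 hours. The log2 fold change was 1.57 (SE 0.257, edgeR adjusted p = 7.94e-04). Tuba1c is, with Tuba1b, one of the alpha-tubulins made in most cell types.

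Tuba1b (chromosome 15, 98931425-98934565) had 2.79, 3.38 and 2.92 CPM at 0 hours and 22.0, 23.0 and 16.99 CPM at 48 hours. Every library after PHx was at least 5.02 times every library from undamaged liver, and the log2 fold change was 2.77 (SE 0.164, edgeR adjusted p = 6.70e-07). Behind these values stand 82 to 105 counts per library at 0 hours and 595 to 824 counts at 48 hours.

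Tuba8 (chromosome 6, 121210696-121226854), a divergent alpha-tubulin best known from muscle, testis and brain, had 3.44, 2.80 and 2.86 CPM at 0 hours and 47.8, 35.9 and 24.4 CPM at 48 hours. The groups were far apart, with the lowest library after PHx 7.09 times the highest from undamaged liver. The libraries at 48 hours also differed 1.96-fold among themselves, the widest spread of the 9 tested members at that time. Its log2 fold change was 3.57 (SE 0.239, edgeR adjusted p = 1.69e-06). The antisense gene Gm15856 overlaps 16.3% of its exon bases and had 0 counts at 0 hours and 11, 1 and 1 counts at 48 hours.

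Tuba4a (chromosome 1, 75214228-75219865), the alpha-tubulin whose coding sequence lacks the final tyrosine codon, had 223, 134 and 202 CPM at 0 hours and 146, 155 and 137 CPM at 48 hours. The libraries after PHx lay inside the range of those from undamaged liver. The log2 fold change was -0.35 (SE 0.174, 95% interval -0.74 to 0.04, edgeR adjusted p = 0.134). Replicate 2 at 0 hours was the lowest library, and without it the log2 fold change was -0.55 with an edgeR adjusted p of 0.00465, a call of lower that the 6 libraries together did not give. Over its other alternatives the adjusted p went up to 0.524. On the opposite strand, Stk16 overlaps 37.3% of the exon bases of Tuba4a. Stk16 itself had a log2 fold change of 0.13 (edgeR adjusted p = 0.347), and reads of both genes cannot be told apart if the counting ignored strand, which the sources used here do not state.

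Tuba1a (chromosome 15, 98949837-98953703), the main alpha-tubulin of developing neurons, was scarce, with 30, 33 and 49 counts at 0 hours and 41, 43 and 40 counts at 48 hours. That was 1.02, 1.06 and 1.48 CPM before and 1.22, 1.20 and 1.14 CPM after PHx, with overlapping groups. The log2 fold change was -0.003 (SE 0.250, edgeR adjusted p = 0.993). Its 95% interval ran from -0.56 to 0.55, so a change of up to 1.47-fold in either direction lies within it.

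**Figure D2:**
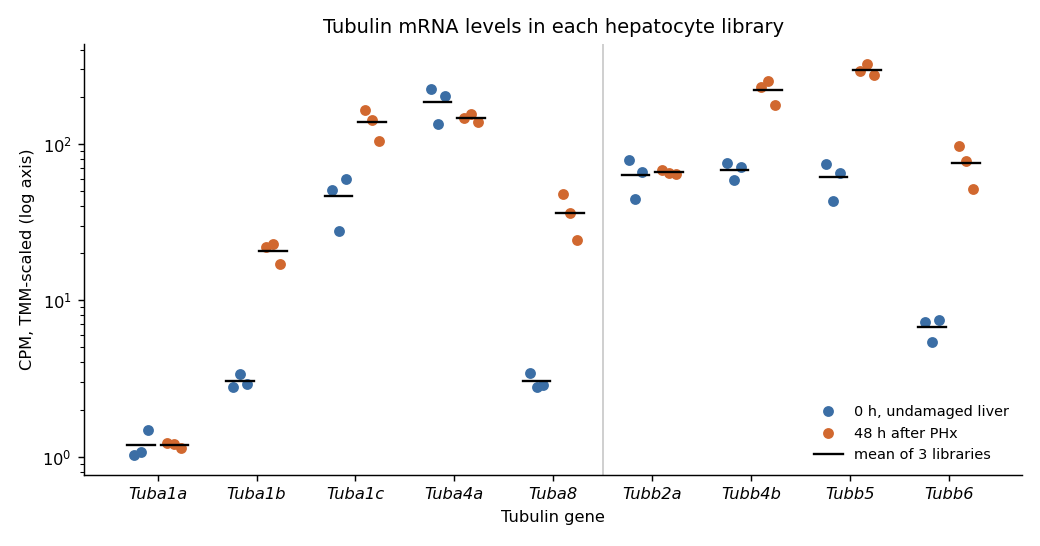
TMM-scaled CPM (log axis) of the 9 tested tubulin genes in each of the 6 libraries, in blue for undamaged liver and orange for 48 hours after PHx, with black lines at the means of 3 libraries. Tubb2b, at 0 to 8 counts, is left out. The colors are separate for Tuba1b, Tuba1c, Tuba8, Tubb4b, Tubb5 and Tubb6 and overlap for Tuba1a, Tuba4a and Tubb2a.

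Among the beta-tubulin genes, Tubb5 (chromosome 17, 35833921-35838306), the widely used class I isotype, had 74.3, 43.2 and 65.4 CPM in undamaged liver and 294, 326 and 274 CPM at 48 hours after PHx. The lowest library at 48 hours was 3.69 times the highest at 0 hours. The log2 fold change was 2.29 (SE 0.191, 95% interval 1.87 to 2.71, edgeR adjusted p = 8.52e-06). Its counts were 1341 to 2184 at 0 hours and 9597 to 11664 at 48 hours, and every 75-base stretch was unique among annotated transcripts.

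Tubb4b (chromosome 2, 25222160-25224702), the class IVb isotype that is also prominent in cilia, had 75.1, 58.8 and 71.4 CPM at 0 hours and 231, 252 and 176 CPM at 48 hours. The groups did not overlap and the log2 fold change was 1.68 (SE 0.158, edgeR adjusted p = 2.02e-05). Its processed pseudogenes Tubb4b-ps1 and Tubb4b-ps2 had at most 21 and 14 counts in any library.

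Tubb6 (chromosome 18, 67390717-67402749), the class V isotype, had 7.25, 5.41 and 7.44 CPM at 0 hours and 97.5, 77.9 and 51.4 CPM at 48 hours. The lowest library after PHx was 6.91 times the highest before, and the spread within the 48-hour group was 1.90-fold. It gave a log2 fold change of 3.49 (SE 0.232, edgeR adjusted p = 1.55e-06).

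Tubb2a (chromosome 13, 34074274-34078007), a class II isotype, had 79.1, 44.4 and 66.6 CPM at 0 hours and 67.9, 65.0 and 64.3 CPM at 48 hours. The 3 libraries after PHx lay within 1.06-fold of each other and inside the 1.78-fold range of the libraries from undamaged liver. The log2 fold change was 0.05 (SE 0.176, 95% interval -0.34 to 0.44, edgeR adjusted p = 0.833). Its upper bound of 1.36-fold lies below the lower bound of the interval of Tubb5, 3.65-fold. Without replicate 2 at 0 hours the value was -0.16 (edgeR adjusted p = 0.257). Its neighbor Tubb2b (chromosome 13, 34126748-34130466) had 1, 0 and 1 counts at 0 hours and 1, 0 and 8 counts at 48 hours and was not tested. At these depths 3 counts, the limit that a count of 0 allows, stand for 0.0825 to 0.0955 CPM before TMM scaling.

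**Figure D3:**
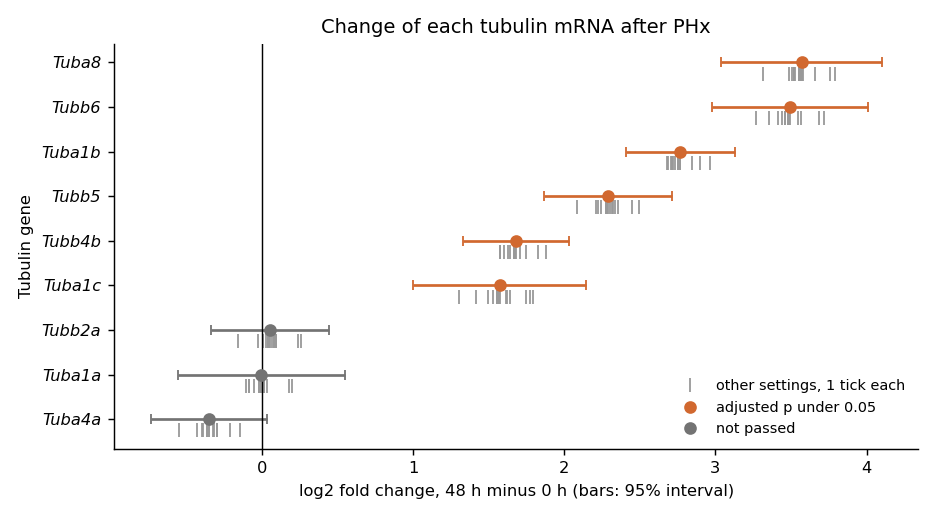
Log2 fold change (48 hours minus 0 hours) of the 9 tested tubulin genes by edgeR, with 95% intervals. Grey ticks give the value under each other normalization, filter, tool or left-out library. The 6 genes in orange passed an adjusted p of 0.05, with values from 1.57 for Tuba1c to 3.57 for Tuba8, and the intervals of Tubb2a, Tuba1a and Tuba4a include 0.

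The libraries of a group deviated together. At 48 hours replicate 3 was the lowest for all 6 genes that rose, with a deviation from the group mean on the log2 CPM scale of -0.51 for Tuba8 and Tubb6 and -0.12 for Tubb5. At 0 hours replicate 2 was the lowest for Tuba1c, Tuba4a, Tuba8, Tubb2a, Tubb4b, Tubb5 and Tubb6, but was the highest for Tuba1b. It also had the largest share of reads outside annotated genes, 32.7%, against 24.3% to 29.3% in the other 5 libraries. The part of this in the tubulin values was not tested. Leaving out any 1 library left the same count of 6 members higher.

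**Figure D4:**
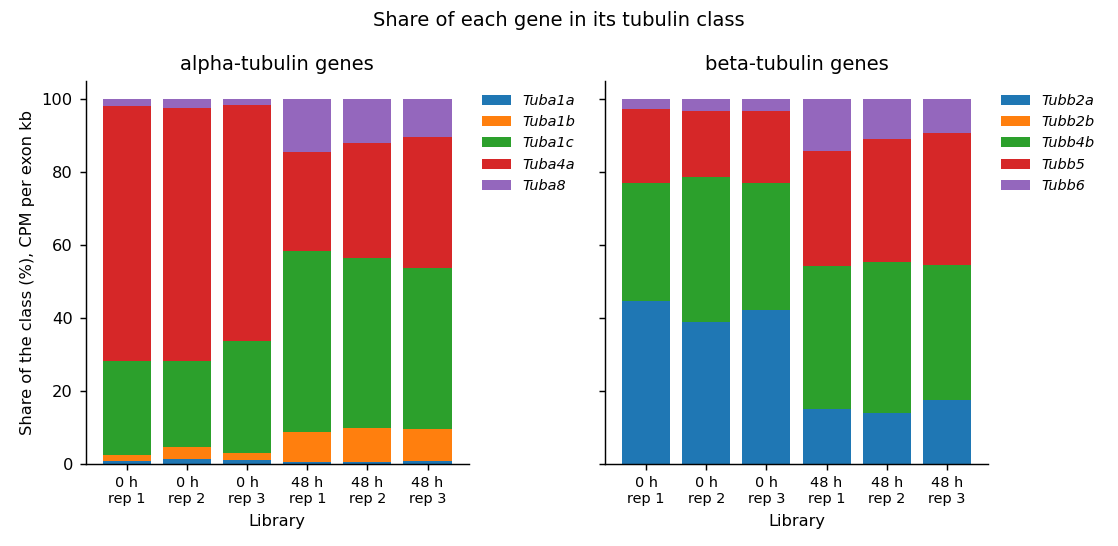
Share (%) of each gene in the CPM per exon kilobase of the alpha-tubulin members (left) and beta-tubulin members (right), 1 bar per library. Tuba4a takes 64.8% to 70.0% of the alpha class at 0 hours and 27.1% to 35.97% at 48 hours, Tubb2a takes 38.9% to 44.5% and then 13.9% to 17.5% of the beta class, and Tubb2b is too scarce to be visible.

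These unequal changes gave the 2 classes another makeup after PHx. Tuba4a made up 68.1% ± 2.89 (SD, n = 3) of alpha-tubulin CPM per kilobase in undamaged liver and 31.6% ± 4.43 at 48 hours. Tuba1c went from 26.7% ± 3.80 to 46.9% ± 2.84, Tuba8 from 1.88% ± 0.454 to 12.3% ± 2.05 and Tuba1b from 2.35% ± 0.974 to 8.71% ± 0.596. Tuba1a stayed the smallest, at 0.921% ± 0.242 and 0.527% ± 0.0784. With exon length the shares of all 5 genes did not overlap between the groups, whereas those of Tuba1a overlapped without length scaling (0.514% and 0.353%) and with coding length (0.537% and 0.361%). The lead of Tuba1c over Tuba4a at 48 hours also turned, with 39.9% against 43.3% without length scaling and 40.9% against 41.8% with coding length.

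In the beta class, Tubb2a went from 41.8% ± 2.82 (SD, n = 3) to 15.5% ± 1.86, Tubb5 from 19.5% ± 1.06 to 33.8% ± 2.36 and Tubb6 from 2.98% ± 0.245 to 11.5% ± 2.53. Tubb4b held 35.7% ± 3.65 and 39.3% ± 2.20, with overlapping groups. A share depends on the length used. Tubb4b held 34.8% and 33.2% without length scaling and 34.8% and 33.1% with coding length, with overlapping groups, and 33.9% and 43.3% without overlap when scaled to unique 75-base stretches, so its direction turned with the scale. On that scale the share of Tuba1b at 48 hours was 15.8% and that of Tubb5 25.5%.

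Ratios between 2 genes of the same library showed the same shift without any scaling between libraries. They are ratios of CPM not divided by length, so they compare the time points and not the levels of the 2 genes. The CPM of Tubb5 was 0.939, 0.972 and 0.983 times that of Tubb2a at 0 hours and 4.33, 5.02 and 4.26 times at 48 hours. The ratio was thus nearly constant within each group. The CPM of Tuba1c was 0.228, 0.208 and 0.294 times that of Tuba4a before and 1.14, 0.911 and 0.758 times after PHx. The ratio of Tubb6 to Tubb5 went from 0.112 ± 0.0139 (SD, n = 3) to 0.253 ± 0.0730, and that of Tubb4b to Tubb5 from 1.15 ± 0.184 to 0.733 ± 0.0785. In all, 8 such ratios were compared, and each gave p = 0.1 by a 2-sided exact permutation test (0.1 after Benjamini-Hochberg adjustment), the smallest value that 3 against 3 libraries can give.

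The order of levels changed accordingly. Per exon kilobase, undamaged liver ranked Tuba4a (50.4 ± 12.6 CPM per kilobase, SD, n = 3) first, then Tubb2a (39.4 ± 10.9), Tubb4b (32.8 ± 4.08), Tuba1c (20.1 ± 7.16), Tubb5 (18.3 ± 4.82), Tubb6 (2.75 ± 0.459), Tuba1b (1.62 ± 0.166), Tuba8 (1.34 ± 0.155), Tuba1a (0.658 ± 0.139) and Tubb2b. The libraries of Tuba4a and Tubb2a, of Tubb2a and Tubb4b, of Tuba1c and Tubb5, and of Tuba1b and Tuba8 overlapped between libraries. Within single libraries Tuba4a was above Tubb2a in 3 of 3, Tubb2a above Tubb4b in 2, Tuba1b above Tuba8 in 2 and Tuba1c above Tubb5 in 1, so the first pair keeps its order in each library and the other pairs do not.

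At 48 hours the order was Tubb4b (105 ± 18.7 CPM per kilobase, SD, n = 3), Tubb5 (89.6 ± 7.91), Tuba1c (59.9 ± 13.6), Tubb2a (40.8 ± 1.19), Tuba4a (39.5 ± 2.45), Tubb6 (31.02 ± 9.49), Tuba8 (15.9 ± 5.17), Tuba1b (11.03 ± 1.73), Tuba1a (0.659 ± 0.0220) and Tubb2b. Here Tubb4b overlapped with Tubb5 and, from Tubb2a down to Tuba1b, each gene with the next. Within single libraries Tubb4b was above Tubb5, Tubb6 above Tuba8 and Tuba8 above Tuba1b in 3 of 3, and Tubb2a was above Tuba4a and Tuba4a above Tubb6 in 2. These orders of the means hold for exon length and turned elsewhere for several pairs. With coding length or no length scaling, Tubb4b was above Tubb2a, Tubb5 above Tuba1c and Tuba8 above Tuba1b at 0 hours. On the same scales Tubb5 was above Tubb4b, Tuba4a above Tuba1c and Tubb2a, and Tubb6 above Tubb2a at 48 hours. With unique 75-base stretches, Tubb2a was above Tuba4a, Tuba1b above Tubb6 and Tuba1a above Tuba8 at 0 hours, and Tuba1c was above Tubb5 and Tuba1b above Tuba8 and Tubb6 at 48 hours.

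Summed over the 10 genes, tubulin took 517, 321 and 480 CPM at 0 hours and 1073, 1078 and 849.8 CPM at 48 hours, or 439 ± 104 and 1000.1 ± 130 CPM (SD, n = 3), a 2.28-fold difference of the means. The beta genes together differed 3.30-fold in summed CPM and the alpha genes 1.42-fold. Summed per exon kilobase, the beta genes differed 2.86-fold and the alpha genes 1.71-fold, so the size of this gap depends on length scaling. The alpha to beta ratio of summed CPM per kilobase was 0.790 ± 0.0637 at 0 hours and 0.475 ± 0.0366 at 48 hours. This ratio compares the listed genes only and rests on the uncertain lengths over which reads of the Tuba1 genes can be assigned.

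Promoter sequence was examined for 2 elements known from genes of dividing cells, the CHR element with the letters TTTGAA and the CCAAT box, both searched on either strand. RefSeq gave the 250 bases before its own start site for 8 of the 10 members (build GRCm38.p6), all but Tubb2b and Tubb6. That site can lie inside the gene as GENCODE bounds it, and all 250 bases of the window of Tuba4a, 202 of Tuba1a, 175 of Tuba1b, 38 of Tuba8 and 5 of Tubb5 did so. TTTGAA was found in 1 of the 8, Tubb4b, and in 16.0% of the 32851 windows of all genes. CCAAT was found in 4 of the 8 (Tuba1a, Tuba1c, Tubb4b and Tubb5) and in 33.8% of all windows. The windows of Tubb4b and Tubb5, which rose, and of Tubb2a, which did not pass the test, are shown with matches in capitals. The 2 elements share no bases in them.
Tubb4b: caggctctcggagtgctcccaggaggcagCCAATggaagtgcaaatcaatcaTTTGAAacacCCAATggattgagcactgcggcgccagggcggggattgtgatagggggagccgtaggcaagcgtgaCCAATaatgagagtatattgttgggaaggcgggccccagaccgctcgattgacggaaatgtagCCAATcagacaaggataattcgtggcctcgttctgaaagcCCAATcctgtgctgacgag
Tubb5: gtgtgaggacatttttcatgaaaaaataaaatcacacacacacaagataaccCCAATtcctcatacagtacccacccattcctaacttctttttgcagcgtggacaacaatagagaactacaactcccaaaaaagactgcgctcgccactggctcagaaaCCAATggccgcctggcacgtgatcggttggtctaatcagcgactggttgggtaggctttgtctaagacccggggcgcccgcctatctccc
Tubb2a: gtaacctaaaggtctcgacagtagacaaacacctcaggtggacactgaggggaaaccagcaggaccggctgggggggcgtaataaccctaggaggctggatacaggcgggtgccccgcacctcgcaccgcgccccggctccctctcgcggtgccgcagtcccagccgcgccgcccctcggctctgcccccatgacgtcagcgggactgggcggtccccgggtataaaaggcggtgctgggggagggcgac
The windows lie on the minus strand at chr2:25224703-25224952 (Tubb4b), chr17:35838302-35838551 (Tubb5) and chr13:34078009-34078258 (Tubb2a). The Tubb4b window holds TTTGAA 198 to 193 bases before the start and 5 CCAAT boxes, and 3 or more CCAAT boxes were present in 2.79% of all windows. Tubb5 had 2 CCAAT boxes and Tubb2a neither element. Of the windows not shown, those of Tuba1b and Tuba8, which rose, held neither element, and that of Tuba1c, which also rose, held CCAAT. Among those that did not pass the test, Tuba1a held CCAAT and Tuba4a neither element. A match of letters is a description of the window and says nothing of binding.

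Genes that act on tubulin were described from 6 lists, with the same 21.4% higher and 19.3% lower of all genes tested as background. Of 10 other tubulin genes, 4 were tested and 4 were called higher. Tube1, the epsilon-tubulin of centrioles, rose from 1.67 ± 0.621 to 6.15 ± 0.614 CPM (SD, n = 3), with a log2 fold change of 1.89 and an edgeR adjusted p of 1.96e-04. Tubg1, the gamma-tubulin from which microtubules are nucleated, rose by 1.07 (edgeR adjusted p = 0.00159) and the delta-tubulin gene Tubd1 by 0.74 (edgeR adjusted p = 0.00812). The fourth, Tubg2, was below 1 CPM, with 10, 5 and 4 counts at 0 hours and 13, 23 and 18 at 48 hours, so it met the filter only through the 48-hour libraries and its call is no support for the list. The list had 3 higher with DESeq2, the replicate block, the filter at 50 counts, or without replicate 2 or 3 of either group. Tuba3a, Tuba3b, Tubal3, Tubb3 and Tubb4a had 0 to 14 counts per library, and Tubb1, the beta-tubulin of platelets, had 0 counts in every library.

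All 21 genes for tubulin folding were tested, with 9 higher, none lower and a median log2 fold change of 0.26. Vbp1, a prefoldin subunit that hands unfolded tubulin to the chaperonin, rose from 1.86 ± 0.0842 to 5.43 ± 1.02 CPM (SD, n = 3; log2 fold change 1.54, edgeR adjusted p = 1.87e-04). Smaller increases were seen in Pfdn1, another prefoldin subunit (0.72, edgeR adjusted p = 0.00793), Cct7, a subunit of the chaperonin itself (0.71, edgeR adjusted p = 9.11e-04), and Tbcb, an alpha-tubulin cofactor (0.70, edgeR adjusted p = 0.0220). The call of Tbcb was lost without replicate 2 at 0 hours (edgeR adjusted p = 0.0535) and without replicate 1 (0.0747) or 2 (0.0568) at 48 hours.

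Of the 3 genes for the decay of tubulin mRNA, Ttc5 had 4.69 ± 0.175 CPM at 0 hours and 4.22 ± 0.305 at 48 hours (SD, n = 3), with overlapping libraries and a log2 fold change of -0.15 (edgeR adjusted p = 0.474). With library size alone as scaling its value was 0.05. Cnot11, a subunit of the deadenylase complex that acts after Ttc5, was higher by 0.41 (edgeR adjusted p = 0.0355), a call lost with upper quartile scaling (0.0604) and without replicate 1 (0.0723) or 2 (0.0971) at 0 hours or replicate 1 (0.0760) or 2 (0.147) at 48 hours. Scaper, a partner of Ttc5 named after its values were seen, had a log2 fold change of -0.44 (edgeR adjusted p = 0.0670) and passed as lower without replicate 2 at 0 hours and under 4 other settings.

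Of 30 tubulin-modifying enzymes 22 were tested, with 4 higher, 2 lower and a median log2 fold change of 0.04. One lower call, named after its values were seen, was Ttll13, with 47, 25 and 30 counts at 0 hours and 16, 8 and 16 at 48 hours, so it met the filter only with the 0-hour libraries and its call is no support for the list. Atat1, the enzyme that acetylates alpha-tubulin inside the microtubule, fell from 39.2 ± 6.52 to 13.6 ± 1.64 CPM (SD, n = 3). It had 39.3, 45.7 and 32.6 CPM at 0 hours and 12.3, 13.1 and 15.5 CPM at 48 hours, with no overlap, a log2 fold change of -1.52 and an edgeR adjusted p of 2.31e-05. An antisense gene overlaps 14.04% of its exon bases. The polyglutamylase Ttll4 was higher by 0.85 (edgeR adjusted p = 3.05e-04), the polyglutamylase subunit Nicn1 by 0.76 (edgeR adjusted p = 0.00400) and the ligase family member Ttll12 by 0.74 (edgeR adjusted p = 0.00266).

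The 21 genes for microtubule nucleation had 13 higher, none lower and a median log2 fold change of 0.64. The 4 with the largest changes were subunits of augmin, which starts new microtubules on the side of existing ones in the spindle, and a centrosome scaffold. Haus6 rose by 2.56 (edgeR adjusted p = 3.73e-07), Haus3 by 2.17 (edgeR adjusted p = 1.49e-05), Haus8 by 2.09 (edgeR adjusted p = 5.59e-05) and the scaffold Cep192 by 2.15 (edgeR adjusted p = 6.23e-07). The 6 log2 fold changes of the tubulin members that rose, from 1.57 to 3.57, span the values of these 4 genes.

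Of 50 genes for microtubule binding and dynamics 44 were tested, with 22 higher, 4 lower and a median log2 fold change of 0.51. The 4 genes with the largest changes were Dlgap5, Fignl1, Ckap2l and Tpx2. Tpx2, which assembles the spindle, went from 1.09 ± 0.401 to 81.6 ± 19.96 CPM (SD, n = 3; log2 fold change 6.21, edgeR adjusted p = 8.71e-08) and the spindle protein gene Ckap2l from 0.490 ± 0.139 to 44.1 ± 7.82 CPM (6.48, edgeR adjusted p = 3.20e-08). Dlgap5, whose protein stabilizes spindle fibers near chromosomes, rose by 6.75 (edgeR adjusted p = 3.68e-07), and by 7.80 without replicate 2 at 0 hours, which held 11 of its counts against 2 and 3 in the other 0-hour libraries. Fignl1, of the fidgetin family, rose by 6.52 (edgeR adjusted p = 3.20e-08) and was under 10 counts in every library at 0 hours. Dlgap5, Fignl1 and, named after their values were seen, Ckap2 and Map2 met the filter only with the 48-hour libraries, so these 4 calls are no support for the list. The 4 lower genes, named after their values were seen, were Map7, Eml3, Tacc1 and Numa1. All 4 lost the call with library size alone as scaling.

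**Figure D5:**
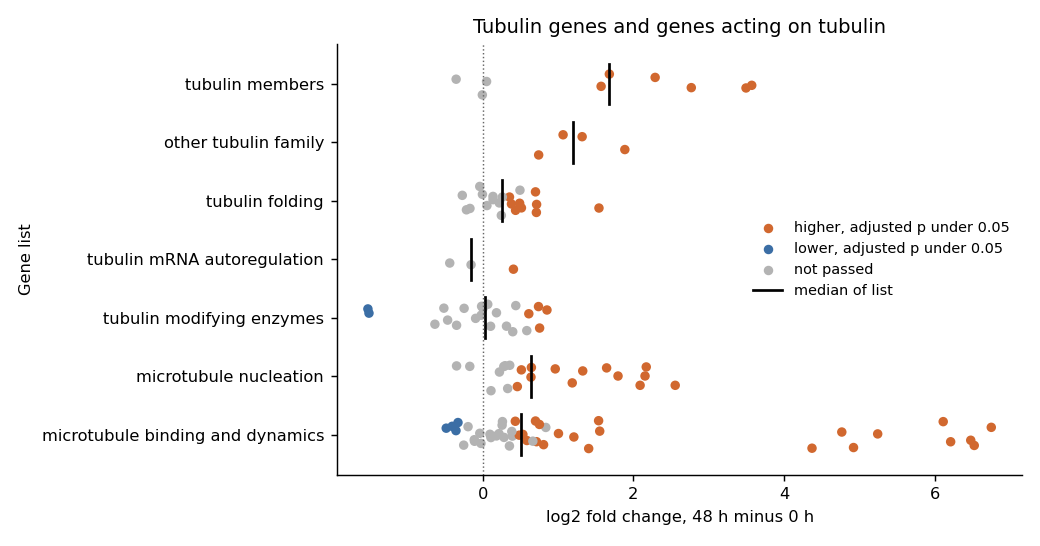
Log2 fold change (48 hours minus 0 hours) of every tested gene of the tubulin members and of the 6 lists of genes acting on tubulin, 1 point per gene, with black bars at list medians. Medians were 1.68 for the tubulin members, 0.64 for nucleation and 0.51 for binding and dynamics. The largest change, 6.75 for Dlgap5, was in the last list. Dlgap5, Fignl1, Ckap2 and Map2 of that list met the filter only with the 48-hour libraries, and its median includes them.

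The genes with the most similar profile were sought among 7556 tested genes of at least 10 CPM, by the root mean square difference of gene-centered log2 CPM over the 6 libraries. For Tuba4a they were Dhx34 (0.0516), S100a1 (0.0600) and Pink1 (0.0684). For Tubb5 they were Hmgn2 (0.0905), Dck (0.117) and Suv39h1 (0.127). Hmgn2 had 6.63 ± 1.78 CPM at 0 hours and 31.3 ± 5.17 at 48 hours (SD, n = 3).

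The hepatocyte label was checked against 10 hepatocyte markers, whose summed level was 109300 to 128300 CPM at 0 hours and 72460 to 87970 CPM at 48 hours, with 1 of the 10 tested genes higher and 4 lower, beside 21.4% and 19.3% of all genes. All 14 endothelial markers, each of them tested, were lower at 48 hours (summed 330 to 493 CPM before and 231 to 258 after). Of 12 Kupffer cell markers, all tested, 3 were higher and 1 lower (90.1 to 135 and 123 to 153 CPM), and of 12 stellate cell and fibroblast markers 11 were tested, of which 2 were higher and 1 lower (69.2 to 113 and 62.4 to 75.2 CPM). Of 9 cholangiocyte markers 3 were tested and 1 was higher (35 to 63.2 and 46.9 to 58.6 CPM), and Krt7, Epcam and Cftr were at 3 counts or fewer in every library. Summed levels of neutrophil, lymphocyte, mesothelial and platelet markers stayed at or under 3.86 CPM in every library. The part of other cell types in the tubulin changes was not tested, and in bulk RNA a change in the number of cells of a type and in the RNA per cell cannot be told apart. Each library held 31419443 to 36346220 gene counts, and all pairs of libraries within a group differed by more than counting noise.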

How the data were processed

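Per the labels, RNA was extracted with TRIzol and sequenced by standard Illumina protocols. Per the submitters' processing notes, FastQC 0.11.5, Trim Galore 0.6.4, STAR 2.6, HTSeq 0.12.4 and DESeq2 were used with build mm10. Read length, strand setting and counting mode are not given in the sources used here. The deposited values are raw counts per gene, 1 file per library. Low-quality, unaligned and multiply aligned reads were listed at 0, so how they were handled before counting is not visible. Rows naming no gene, 24.3% to 32.7% outside genes and 4.27% to 5.29% ambiguous, were left out.

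Genes reaching 10 counts in 3 or more libraries were tested by edgeR 4.0.16 (quasi-likelihood, TMM, time point only, Benjamini-Hochberg over all genes tested), after the procedure was tested on simulated data. 95% intervals use the estimate's standard error derived from the F statistic. P-values test the difference between the time points against the spread between the libraries. Overlaps, lengths and 75-base stretches came from GENCODE M21 transcripts, alignments from Biopython 1.88. Alternatives were other scalings and filters, the replicate number as a block, each library left out, limma-voom (limma 3.58.1) and DESeq2 1.42.0. All 10 members were named; from each other list the 4 genes with the largest change among those past an adjusted p of 0.05 and 1 CPM, and Ttc5; and the 3 genes most like the alpha and the beta member with the highest mean CPM, not divided by length. The members and lists were chosen with earlier results of these data known. Intervals and limits cover counting and library spread only. Some sequences and 1 marker gene are not reported here.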

Additional observations from a re-analysis of the deposited data

How the results depend on the processing

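The count of 6 tubulin members higher at 48 hours held under all 16 alternatives, and the log2 ratio of summed tubulin CPM stayed between 0.996 and 1.39. With library size alone as scaling the median of all genes shifted by 0.20 on the log2 scale, genes lower at 48 hours numbered 2110, the share of higher among all calls was 71.6% against 52.5%, modifying enzymes higher numbered 8 and dynamics genes lower 0; Tuba1a had 0.20 and Ttc5 0.05. Autoregulation genes higher numbered 0 with upper quartile scaling and with the replicate block, and 1 such gene, Scaper, was lower with upper quartile scaling, TMM from protein-coding genes, no filter, and the filter at 50 counts. The filter at 50 counts left 1 modifying enzyme lower. Tuba1a was 0.0105 with limma-voom and Tubb2a -0.0234 with upper quartile scaling.

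Leaving out 1 library gave 0 to 1 members lower (Tuba4a without replicate 2 at 0 hours), 0 to 1 autoregulation genes higher, 0 to 1 lower and 2 to 4 dynamics genes lower, and log2 fold changes of -0.11 to 0.18 for Tuba1a and -0.16 to 0.24 for Tubb2a. Without length scaling, with coding length and with unique 75-base stretches, the share of Tuba1b at 48 hours was 6.07%, 6.20% and 15.8%, and that of Tubb5 45.4%, 45.5% and 25.5%. Deviations of libraries with the same replicate number correlated at 0.03, -0.07 and -0.14, so no pairing by number was seen. These values cannot exclude a shared day or batch. With the replicate block anyway, dynamics genes lower numbered 2, Cnot11 was not called (edgeR adjusted p = 0.0738) and Tuba1a was at 0.0117. The causes of these changes were not tested. Tubb2b, at 0 to 8 counts, was not tested.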
